A study of Arabidopsis thaliana with 3 samples.

Results

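The plastid genome of Arabidopsis thaliana encodes the core subunits of a bacterial-type RNA polymerase in 4 genes, rpoA, rpoB, rpoC1 and rpoC2. These genes were followed in dry and germinating seed. They are the probe sets that the platform annotation pairs with an rpo gene alone, 4 of 13356 genes with a probe set of their own on the array and 4 of the 69 plastid-encoded genes among them. The samples were wild-type seed of ecotype Columbia in 3 states, each measured on 1 Affymetrix ATH1 array: unimbibed seed, seed imbibed for 3 days on untreated Murashige and Skoog agar, and seed imbibed for 3 days on the same medium with trichostatin A (TSA), which inhibits histone deacetylases. The sample's own label gives the TSA dose as 10 µM, while the treatment protocol gives it as 10 mM, a far higher dose. Imbibed seed was kept under 16 h of light per day, and the series title sets germination with the inhibitor against germination without it. The labels say nothing of pooling, seed batches or which part of the seed was taken.

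Plastid genes are read by a pair of polymerase types. The plastid-encoded polymerase (PEP) is built from the rpo products, resembles the bacterial enzyme, needs nuclear-encoded sigma factors to find promoters, and is known for transcribing photosynthesis genes. The nuclear-encoded polymerase (NEP) is a phage-type enzyme that is known to transcribe the rpo genes themselves, so it stands upstream of PEP when chloroplasts form. In PEP, rpoA encodes the α subunit, on which the core assembles, and rpoB the β subunit. The bacterial β′ subunit is divided in plastids into β′, encoded by rpoC1, which carries the catalytic metal site, and β″, encoded by rpoC2. The rpoB, rpoC1 and rpoC2 genes lie next to each other in 1 cluster, followed by rps2 and atp genes. The rpoA gene lies at the end of a ribosomal protein cluster.

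Values are MAS5 signals, brightness per probe set on a linear scale, after each array was scaled to a common trimmed mean. Signals below 10.7, the 40th percentile of all scaled signals, were raised to that floor before a ratio was taken, and a ratio with 1 side at the floor is a bound. A gene was called higher or lower at 2-fold. With 1 array per state there was no replicate, no test and no p-value, so no difference below was set against the spread between batches of seed. As a gauge of probe set error, ratios of different probe sets of the same gene had a within-gene SD of 0.76 for imbibed over unimbibed seed (42 genes) and 0.38 for TSA over untreated seed (49 genes), on the log2 scale. The difference between ratios of 2 such probe sets accordingly has an SD of 1.08 and 0.54. Signals of different genes are not compared in size, because each probe set binds with its own strength.

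The array states carried the seed markers their labels call for. All 5 dry seed markers (a dehydrin, a further LEA protein, the storage protein PAP85 and oleosins) were bright in unimbibed seed, with a summed signal of 37546 that was 222.2 in untreated and 1210 in TSA-treated imbibed seed. The summed signal of 5 nuclear chloroplast genes (RCA, PSAN, LHCB4.1, LHCB4.2 and PORB) went from 221.6 in unimbibed seed to 2095 in untreated and 7695 in TSA-treated seed, and 4 of the 5 rose with TSA. The ratio of 3′ to 5′ signals for actin, which rises as RNA breaks down, was 1.82, 4.66 and 4.31 on the unimbibed, untreated and TSA arrays. The same ratio was 1.31, 0.876 and 1.497 for GAPDH and 3.87, 3.17 and 2.71 for ubiquitin, so the controls did not order the arrays alike. The part of these differences in the rpo values was not tested. Plastid transcripts mostly lack long poly(A) tails, and the sources used here do not say how they were primed for labelling.

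The transcript for the α subunit, rpoA, had a scaled signal of 65.7 on the unimbibed array, 156.8 on the untreated imbibed array and 156.0 on the TSA array. It was low in dry seed and at the same height in both kinds of imbibed seed. It rose 2.39-fold on imbibition, and its log2 ratio of TSA over untreated seed was -0.01.

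The transcript for β, rpoB, was the dimmest of the 4 relative to the floor, with signals of 10.3, 22.9 and 13.7 in unimbibed, untreated and TSA-treated seed. Its dry seed signal was just under the floor and its TSA signal just over it, so it was well clear of the floor only in untreated seed. It was at least 2.13-fold higher after imbibition. With TSA its log2 ratio was -0.74, a signal 1.67-fold lower that did not reach a call.

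The transcript for β′, rpoC1, had signals of 99.6 in unimbibed seed, 192.7 in untreated seed and 111.8 in TSA-treated seed. The untreated array stood above the other two. Its log2 ratio was 0.95 on imbibition, just short of 2-fold, and -0.79 with TSA, a signal 1.72-fold lower. TSA-treated seed was within a log2 ratio of 0.17 of unimbibed seed for this gene.

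The transcript for β″, rpoC2, had signals of 26.0, 47.5 and 41.4 in the same order of states. Both imbibed arrays were above the unimbibed array and close to each other. The log2 ratio was 0.87 on imbibition and -0.20 with TSA.

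**Figure D1:**
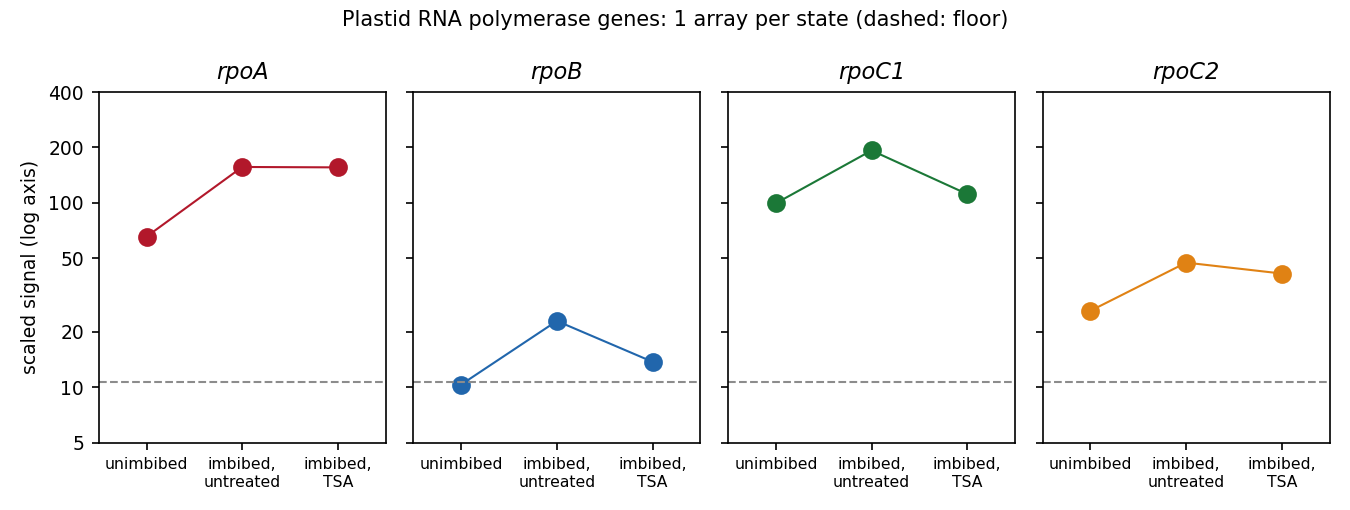
Scaled signal (log axis) of each rpo gene on the 3 arrays, 1 point per array, with lines joining the points of a gene and a dashed line at the floor of 10.7. For rpoB, rpoC1 and rpoC2 the untreated imbibed array is highest, and for rpoA the TSA array, at 156.0, is level with it.

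The scaling matters for the first of these steps. As deposited, the signals were 45.7, 178.7 and 181.6 for rpoA in unimbibed, untreated and TSA-treated seed, 7.2, 26.1 and 16.0 for rpoB, 69.3, 219.6 and 130.1 for rpoC1, and 18.1, 54.1 and 48.2 for rpoC2. The unimbibed array had the lowest trimmed mean and was scaled up by 1.44, against 0.877 and 0.859 for the imbibed arrays. Unscaled, all 4 genes were past 2-fold higher on imbibition, but 5671 of all probe sets were too, against 3669 after scaling. The TSA ratios hardly depend on this step, since the imbibed arrays had nearly the same factor.

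Untreated seed imbibed for 3 days was set against unimbibed seed, 1 array each, so state, seed batch and array cannot be told apart. All 4 rpo signals were higher after imbibition, with log2 ratios from 0.87 to 1.26 and a median of 1.02. Of the 4, rpoA and rpoB rose at least 2-fold and none fell, where 22.6% of the 16246 probe sets measured on either array were called higher and 21.1% lower, and the median over all of them was 0.01. The rpoB call rests on an unimbibed signal under the floor. Its log2 ratio was 0.91 with quantile normalization, where rpoC1 was at 1.02, and 0.02 with the floor at the 60th percentile. At 1.5-fold all 4 genes were higher (31.8% of all probe sets) and at 4-fold none was (9.77%). The 4 ratios spanned 0.39, less than the SD of 1.08 between probe sets, so no difference among them could be told from probe set error. The other plastid-encoded genes had a median of 1.17 over 61 measured, with 34 higher and 1 lower, and a wider range from -1.90 for psbC, a photosystem II antenna protein, to 4.44 for the ribosomal protein gene rpl33. The rpo median was 0.15 below theirs, and it was 0.13 above theirs under poly-A control scaling.

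By class, the ribosomal protein genes had higher ratios on imbibition than the rpo genes, with a median log2 ratio of 2.05 for rpl (large subunit, 6 of 7 higher) and 1.78 for rps (small subunit, 5 of 8 higher). The photosystem I genes (psa) had a median of 0.94, the cytochrome b6f genes (pet) 0.39 and the NADH dehydrogenase-like genes (ndh) 0.56. The photosystem II genes (psb) had 1.29 and the ATP synthase genes (atp) 1.93. The rpo median thus lay among the class medians. The gene rbcL, for the large subunit of Rubisco, stood alone at 2.91.

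TSA-treated seed was compared with untreated imbibed seed, both at 3 days. None of the 4 rpo genes was 2-fold higher and none was 2-fold lower, where 10.4% of the 15700 measured probe sets were called higher and 9.51% lower. All 4 log2 ratios were below 0, with a median of -0.47 and a range from -0.79 to -0.01, beside a median of -0.02 over all measured probe sets. For rpoA, the ratio turned to 0.02 with signals as deposited. The median over the 4 genes was negative under each of the 9 scaling and floor settings, from -0.90 with poly-A control scaling to -0.11 with the floor at the 60th percentile. Under poly-A control scaling, rpoB and rpoC1 were past 2-fold lower, at -1.17 and -1.22. That scaling called 3921 of all probe sets lower, against 1493 with the usual scaling. With the usual scaling rpoB and rpoC1 were past 1.5-fold lower (21.4% of all probe sets). The rpoC1 ratio was about 2 times the within-gene SD of 0.38, and those of rpoA and rpoC2 were smaller than it.

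Most other plastid genes had higher signals with TSA. Of the 63 other plastid-encoded genes measured, 43 were at least 2-fold higher with TSA and 0 were 2-fold lower. Their median log2 ratio was 1.28. The rpo median was 1.74 below that of the others, and this gap ran from 1.27 to 1.85 over the 9 settings. A scaling factor per array cancels from the gap except where a signal meets the floor. Settings that change only the factor could therefore move the gap only through the floor. It stayed at 1.74 with signals as deposited and with 75th percentile, hybridisation control and poly-A control scaling. Among the 62 plastid genes above the floor on both imbibed arrays, rpoC1 and rpoB had the lowest and second lowest TSA ratios, and rpoC2 and rpoA ranked 5 and 6. Between them stood rpl36, a ribosomal protein gene (-0.38), and ndhH, an NADH dehydrogenase-like subunit (-0.30). Genes with a side at the floor were not ranked. Among these, petN had signals of 17.4 in untreated and 9.62 in TSA-treated seed, a log2 ratio of -0.69 or lower. For rps14 they were 13.6 and 8.85, a ratio of -0.34 or lower. The place of petN relative to rpoC1 and rpoB is therefore not known. Over the 9 settings, between 1 and 5 other plastid genes had a TSA ratio below the highest rpo ratio. In 5 of the settings 1 or 2 others were also below the lowest: 1 each with signals as deposited, hybridisation control scaling, poly-A control scaling and the floor at the 25th percentile, and 2 with no floor. At the other end were petL, a small cytochrome b6f subunit, at 2.90 and psbC at 2.88. With 1 array per state the difference between rpo and other plastid genes was not tested across seeds.

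**Figure D2:**
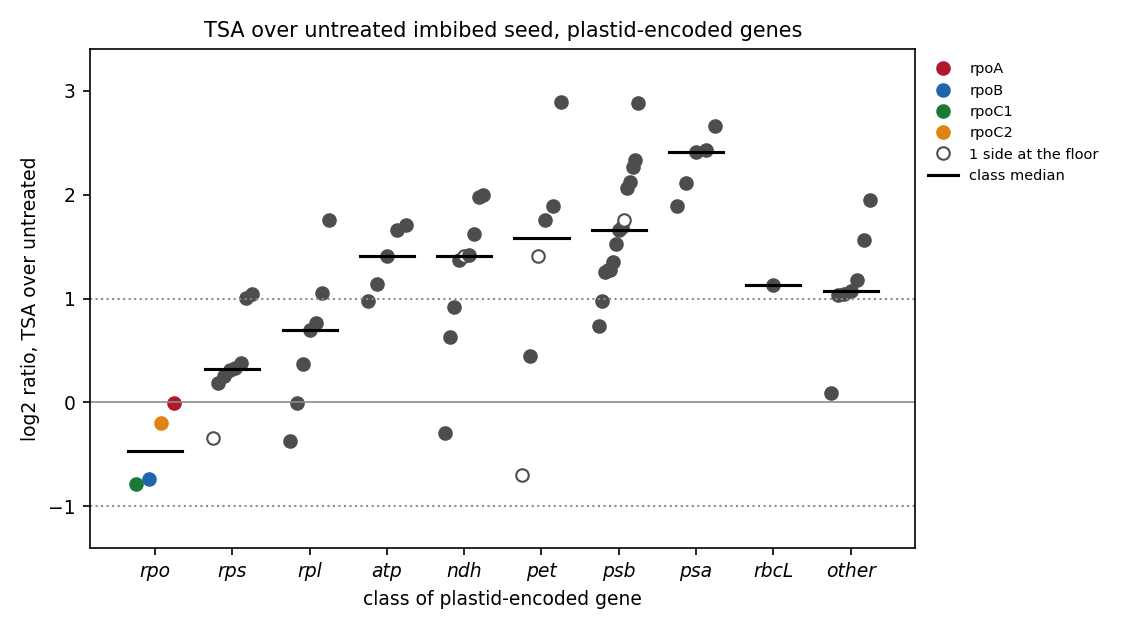
Log2 ratio of TSA-treated over untreated imbibed seed for each measured plastid-encoded gene, grouped by class, with black bars at class medians, open circles where 1 side is at the floor, and dotted lines at 2-fold. The 4 rpo genes lie between -0.79 and -0.01, while the class medians of the others run from 0.32 for rps to 2.41 for psa.

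The class nearest to rpo in its TSA values was that of the ribosomal protein genes. The rps genes had a median of 0.32, with 2 of 8 higher, and it turned to -0.11 under poly-A control scaling. The rpl genes had a median of 0.70, with 2 of 7 higher. All 5 psa genes were at least 2-fold higher, with a median of 2.41, as were 13 of 15 psb genes (1.66). The same held for 4 of 6 pet genes (1.59), 4 of 5 atp genes (1.41) and 6 of 9 ndh genes (1.41). The median of each of these 5 photosynthesis-related classes stayed above 0 under all 9 settings. Of the 43 genes of these classes and rbcL, 41 were measured. At least 2-fold higher with TSA were 33 of them, 4 of 15 ribosomal protein genes and 0 of 4 rpo genes. Ratios above 0, of any size, were found for 39 of the 41, 12 of the 15 and 0 of the 4.

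When both comparisons were plotted together, the rpo genes lay inside the range of plastid genes for imbibition and at its lower edge for TSA. These comparisons share the untreated array, so their ratios are given side by side only. For rpl36 they were 2.57 on imbibition and -0.38 with TSA, and ndhH was at least 2.37-fold higher on imbibition with a TSA ratio of -0.30. The rpl36 signals were 15.7, 93.3 and 71.9 in unimbibed, untreated and TSA-treated seed, and those of ndhH were 1.15, 25.4 and 20.7, the first of them below the floor.

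**Figure D3:**
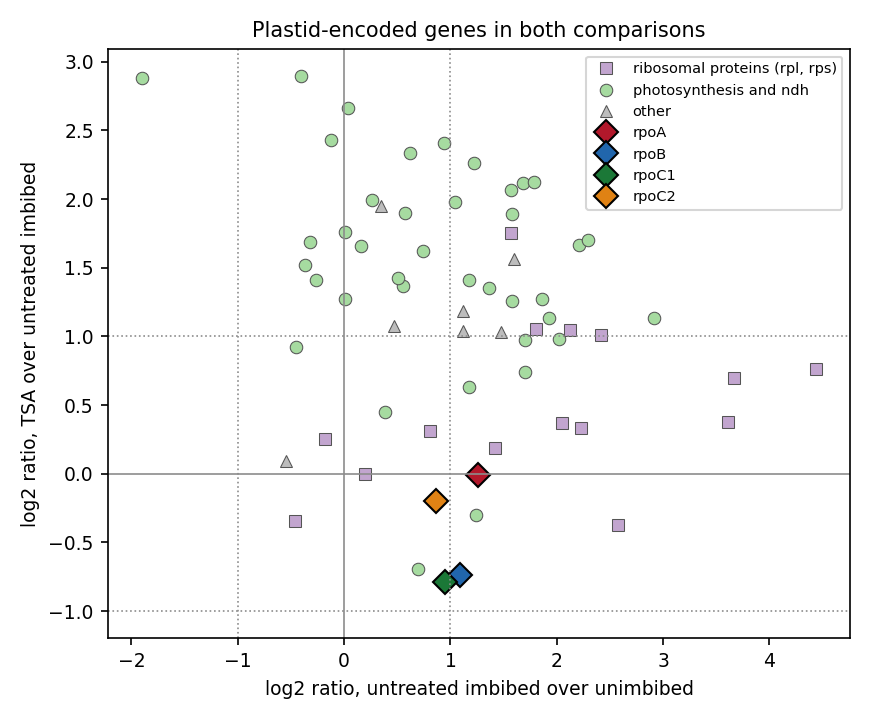
Each plastid-encoded gene measured in both comparisons, with the log2 ratio of untreated imbibed over unimbibed seed on the horizontal axis and of TSA-treated over untreated seed on the vertical axis, dotted lines at 2-fold. The rpo genes (diamonds) sit near 1 on the horizontal axis and at or below 0 on the vertical axis, where few other plastid genes lie.

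Among the 4 rpo genes, TSA ratios were lower for rpoB and rpoC1, which differed by 0.05, than for rpoA and rpoC2, which differed by 0.19. The ratio of rpoC1 was 0.59 below that of its cluster neighbour rpoC2 and 0.78 below that of rpoA. These gaps were under 2 times the SD of 0.54 between probe sets, so the genes could not be told apart with confidence. For rpoB the gap to rpoA was 0.73, and this gap rests on a signal near the floor: with the floor at the 60th percentile the rpoB ratio was -0.02 and could not be told from that of rpoA. The order of genes along the plastid chromosome was then set beside the values.

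In the cluster that starts with rpoB, TSA ratios were higher with each step from rpoC1 to atpH. They were -0.74 for rpoB, -0.79 for rpoC1, -0.20 for rpoC2, 0.31 for rps2 (a small ribosomal subunit protein), 1.70 for atpH, 1.66 for atpF and 1.14 for atpA (subunits of the ATP synthase). The atpI gene between rps2 and atpH was at or below the floor on all 3 arrays and gave no ratio. On imbibition the first genes of the cluster were close together, at 0.95 for rpoC1, 0.87 for rpoC2 and 0.80 for rps2, and atpH, atpF and atpA were higher, at 2.29, 2.21 and 1.93. The step between rps2 and atpH was thus 1.49 and 1.39 in the respective comparisons, over 2 times the probe set SD of 0.54 with TSA but not over 2 times the SD of 1.08 on imbibition. On the other side of rpoB, petN, a small cytochrome b6f subunit, was above the floor only in untreated seed, at 17.4, so it was at least 1.62-fold higher on imbibition and at least 1.62-fold lower with TSA. The photosystem II gene psbM, next after it, rose by a log2 ratio of 1.22 on imbibition and by 2.26 with TSA.

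In the ribosomal protein cluster that ends with rpoA, all 6 measured genes before rpoA had higher ratios on imbibition, from 1.81 for rpl16 to 3.67 for rpl22, against 1.26 for rpoA. Of these, rpl22 and rps3 exceeded rpoA by over 2 times the probe set SD of 1.08. Their TSA ratios were 1.01 for rps19, 0.70 for rpl22, 0.38 for rps3, 1.05 for rpl16, 0.37 for rpl14 and -0.38 for rpl36. The measured gene nearest to rpoA, rpl36, had the lowest TSA ratio of the stretch, close in size to the within-gene SD of 0.38. The rpoA signal itself was level between the imbibed arrays. The ratios did not follow the distance from rpoA, since rpl16 had the highest, above rpl22 and rps3, which lie farther away. On the far side of rpoA, the cytochrome b6f gene petD had signals of 8.48, 14.0 and 19.2, close to the floor, with a TSA log2 ratio of 0.45, and petB rose by 1.90 with TSA.

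**Figure D4:**
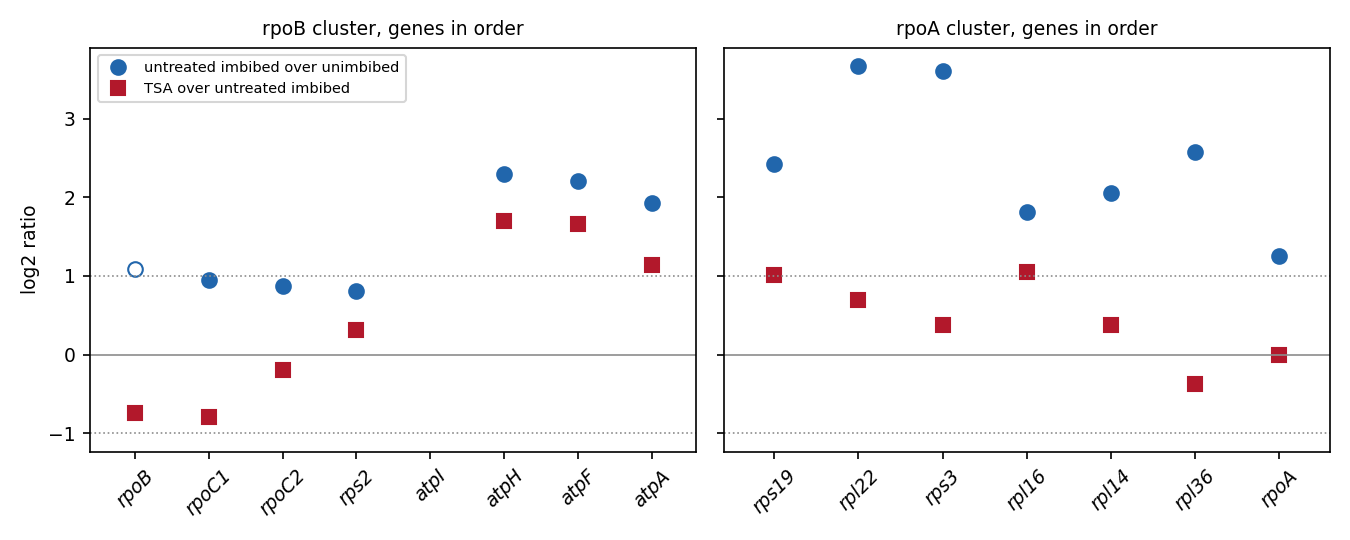
Log2 ratios in both comparisons for the genes of the rpoB cluster (left) and of the stretch that ends with rpoA (right), in gene order for the genes analysed here, with open symbols where 1 side is at the floor and no symbol where a gene gave no value. TSA ratios in the rpoB cluster go from -0.74 at rpoB to 1.70 at atpH. Those before rpoA lie between 1.05 at rpl16 and -0.38 at rpl36, without an even trend along the stretch.

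A pair of other plastid genes known for NEP promoters, accD and clpP, was looked at after the values had been seen. The accD gene, for a subunit of the acetyl-CoA carboxylase of fatty acid synthesis, had signals of 29.9, 64.7 and 133.2 in unimbibed, untreated and TSA-treated seed. It rose in both steps, by a log2 ratio of 1.12 on imbibition and 1.04 with TSA. The clpP gene, for a protease subunit, had signals of 1951, 1340 and 1429. It passed 2-fold in neither step, with ratios of -0.54 and 0.09. Each value rests on 1 probe set and 1 array per state, and a pattern shared with the rpo genes was not tested.

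TSA-treated seed was compared with unimbibed seed as well. This ratio shares its arrays with the ones above and is given for the levels only. Of the 4 genes, rpoA was 2-fold higher, at a log2 ratio of 1.25, and none was 2-fold lower, where 23.3% of the 16314 measured probe sets were called higher and 23% lower. The ratios were 0.67 for rpoC2 and 0.17 for rpoC1, and rpoB was at least 1.28-fold higher. The median of the 4 was 0.51, against 2.45 over 62 other plastid genes, 54 of which were higher, and -0.07 over all measured probe sets. In scaled signal the TSA array thus lay between the unimbibed and the untreated arrays for rpoB, rpoC1 and rpoC2, and level with the untreated array for rpoA. At 1.5-fold, 2 of the 4 were higher (31.2% of all probe sets), and at 4-fold none was (11.1%). Under poly-A control scaling the rpo median was 1.67 and 3 of 4 were past 2-fold higher. That scaling called 7027 of all probe sets higher, against 3808 with the usual scaling.

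The nuclear partners of this polymerase could hardly be followed. None of 13 listed PEP-associated proteins and none of 6 sigma factors had a probe set of its own in the annotation used, so nothing is said of their expression. Of 3 phage-type polymerases, RPOTmp (AT5G15700), the enzyme directed to both mitochondria and plastids, had one. Its signals were 19.5 in unimbibed, 3.16 in untreated and 1.72 in TSA-treated seed. It was above the floor only in dry seed and at least 1.82-fold lower after imbibition, and it gave no ratio between the imbibed arrays. Its direction on imbibition was opposite to that of the 4 rpo ratios, and a link between them was not tested.

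The loci whose pattern over the 3 arrays was nearest to the rpo mean were sought among 5192 loci above the floor on all arrays, by the Euclidean distance between their pair of log2 ratios and the rpo means of 1.04 on imbibition and -0.43 with TSA. The nearest were AT2G24230 (distance 0.03), AT5G06050 (0.04), AT1G48440 (0.05), MSRA5, a methionine sulfoxide reductase (0.06), and AT1G66810 (0.06), all nuclear. The distances of these loci were far below the within-gene SDs of 0.76 and 0.38, so their order could not be told from probe set error. AT2G24230 and AT1G66810 were also close to the floor in unimbibed seed, at 11.2 and 11.8. The rpo genes themselves lay 0.29 to 0.48 from their own mean, which includes rpoB although its unimbibed signal was under the floor. AT1G48440, as an example, had signals of 168.0, 351.7 and 268.9 in unimbibed, untreated and TSA-treated seed. The nearest of the 53 plastid genes compared was rps16 at a distance of 0.73, followed by rps2 at 0.78. Of the 5192 loci, 747 were nearer to the rpo mean than rps16.

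**Figure D5:**
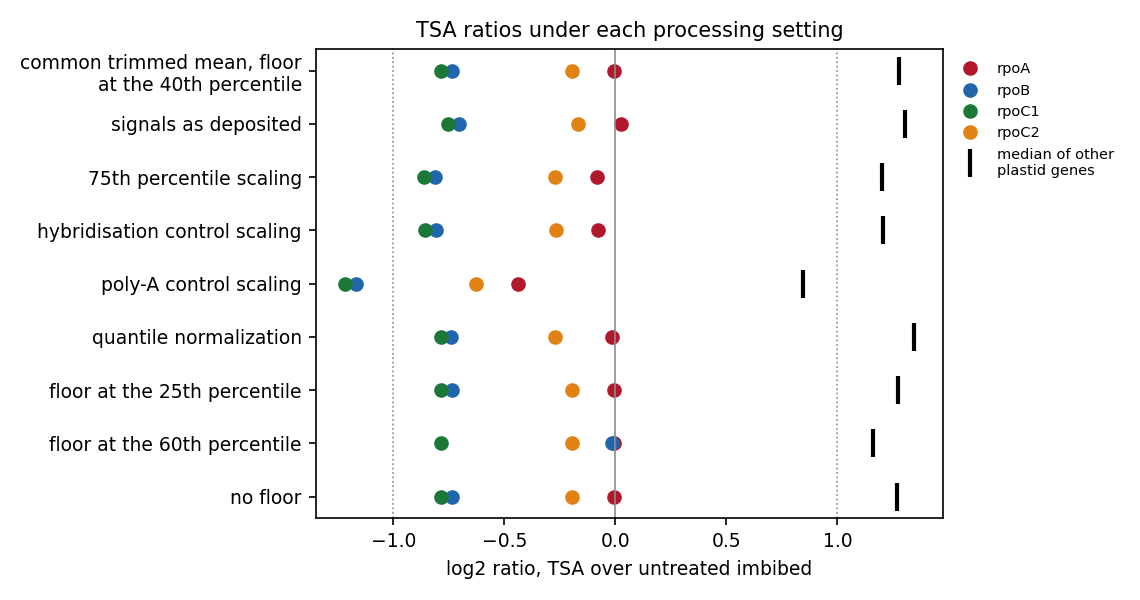
TSA over untreated log2 ratio of each rpo gene (points) and the median of the other plastid-encoded genes (black bars) under each scaling and floor. The bars lie between 0.84 and 1.35 and the rpo points between -1.22 and 0.02 in every setting shown.

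A signal from a mixture of cells cannot tell fewer cells of a type, or fewer plastids per cell, from less transcript in each. The 4 probe sets carry the suffix for probes designed to match a single transcript, and no detection calls were used, so rpoB in particular is supported only by its signal relative to the floor.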

How the data were processed

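RNA of 3 seed samples was hybridised to 1 ATH1 array each. The deposited values are intensity values, a linear signal per probe set for which the submitters' processing notes name MAS5. Its version and scaling target are not given in the sources used. Of 22810 probe sets, 64 controls were left out. All 3 columns were mapped by name and 0 were unmapped. The 2% trimmed means were 26.5, 43.4 and 44.4, differing by over 5%, so arrays were scaled to their common mean. Names came from the platform annotation, updated through RefSeq (TAIR10.1) by gene identifier: 13513 probe sets had 1 gene, 503 several and 8730 none. Lists are described by counts and medians beside all measured probe sets. Named genes are the 4 rpo genes, list members, cluster neighbours, the extremes among plastid genes and the 5 nearest patterns; accD and clpP were added after values were seen. Members and lists were chosen with earlier results of these data known. The number of arrays limits the precision. Calculations used Python 3.11.15, pandas 2.3.3 and SciPy 1.17.1 and were tested on simulated data.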

Additional observations from a re-analysis of the deposited data

How the results depend on the processing

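The ratios of the rpo genes and RPOTmp, the rpo, other plastid and class medians, and the counts over rpo genes and all probe sets were recomputed with 5 other scalings and 3 other floors (25th and 60th percentile, none), and the rpo and all probe set counts also at 1.5-fold and 4-fold. Ratios of other single genes and the distances between patterns were not. No paired analysis was possible because each state has 1 array, and for the same reason no array could be left out. The count of rpo genes higher on imbibition was 2 of 4. It was 4 with signals as deposited, with hybridisation control scaling, with poly-A control scaling and at 1.5-fold. It was 3 with 75th percentile scaling, 1 at the 60th percentile floor and 0 at 4-fold. The count higher in TSA-treated than unimbibed seed was 1; it was 2 with signals as deposited, hybridisation control scaling and 1.5-fold, 3 with poly-A control scaling and 0 at 4-fold. The count lower with TSA than without was 0; it was 2 with poly-A control scaling and at 1.5-fold. Under poly-A control scaling the rpo and other plastid medians were 2.59 and 2.46 on imbibition, and 1.67 and 3.67 for TSA over unimbibed seed. That scaling moved log2 ratios by a median of 1.68 on imbibition and -0.43 with TSA where both sides were above the floor, and by other amounts where a side was at the floor, as for rpoB on imbibition, from 1.09 to 1.85. It moved the share of calls that were higher from 51.7% to 92.3% and from 52.3% to 22.4%. As deposited, the share was 75.7% on imbibition. Over all settings, probe sets called higher numbered 1588 to 9789 on imbibition (3669 as reported) and 356 to 3952 with TSA (1639), and lower 813 to 5874 (3425) and 149 to 4248 (1493). The cause of these shifts was not tested beyond the scaling or threshold itself. Of 394 recomputed values 337 stayed within the probe set error or 1.5 times the count, and none changed sign where a 2-fold change had been called. This tally is lenient, since the probe set error on imbibition was 1.08. The rpo median on imbibition, for example, went from 1.02 to 1.655 with hybridisation control scaling and was counted as unmoved. The tally also holds gaps between medians, from which a scaling factor cancels except at the floor, and counts that stayed at 0. RPOTmp was above the floor in 7 of 9 settings and lower after imbibition in each of those.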
